A study of Mus with 50 samples.

Results

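The 24 livers described here, of 50 in the series, were selected on the measured signal of Fasn, the fatty acid synthase: they are the 12 highest and the 12 lowest of 46 ranked livers. Animals 64, 84, 87 and 235 were left out of the ranking, and the 22 livers between the groups served as a separate set. All 50 livers came from female mice of a C57xFVB backcross that carried the MMTV-Neu transgene and are labelled with breast cancer, and each was profiled on 1 whole-transcript array. The transgene places the Neu proto-oncogene under a mammary tumour virus promoter that acts mainly in mammary epithelium, so the liver is not its target tissue. Backcross animals differ in genotype, and no genotype was used here. High and low Fasn livers do not differ in any label: the groups were made from the measured Fasn value alone. The livers were taken for extreme values of an ageing grade, and which liver has which grade is not in the sources used here. Each liver bears its own animal number, and the p-values measure the spread between these animals. Age, diet, feeding state and hour of collection are not given in the sources used here.

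Fasn joins acetyl and malonyl units into palmitate and is the last step of new fatty acid synthesis. Acly supplies the acetyl-CoA from citrate, Acaca makes malonyl-CoA, and Elovl6 and Scd1 lengthen and desaturate the product. In liver this set is driven after feeding by insulin, through the transcription factor SREBP-1c (gene Srebf1), and by carbohydrate, through ChREBP (gene Mlxipl). In fasting, genes of glucose production such as Pck1 and G6pc, and the insulin-repressed binding protein gene Igfbp1, take the opposite course.

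Values are log2 signals, so a difference of 1 is a doubling of signal. Fasn ran from 10.39 through a median of 10.68 to 11.30 in the high group and from 8.94 through 9.18 to 9.43 in the low group. The means were 10.73 ± 0.29 and 9.21 ± 0.15 (SD, n = 12 each). The ranking fixed this gap, and it was not tested. The lowest liver of the high group, animal 60, had 10.39 and the next liver below it, animal 223, had 10.33. The highest liver of the low group, animal 170, had 9.43 and the next above it, animal 257, had 9.54. Fasn thus has no break at either border of the groups. The 4 livers left out had Fasn values of 7.60 in animal 64, 7.19 in animal 84, 7.37 in animal 87 and 8.41 in animal 235, below every ranked liver.

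**Figure D1:**
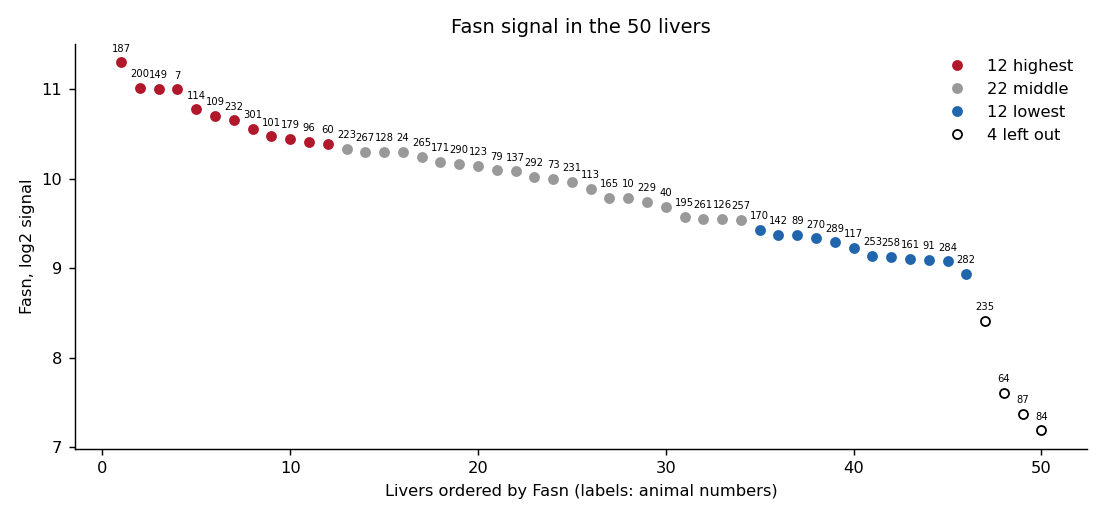
Fasn log2 signal (vertical axis) in all 50 livers in falling order (horizontal axis), each point a liver labelled with its animal number and coloured by set. The 46 ranked livers descend without a break from 11.30 to 8.94, and the 4 livers left out lie below them at 8.41 or less.

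Array medians ran from 3.27 to 3.34 in the high and from 3.28 to 3.34 in the low group. The groups were not spread evenly over animal numbers: 6 high and 3 low livers came from animals 7 to 128, 5 high and 3 low from animals 137 to 235, and 1 high and 6 low from animals 253 to 301. What these stretches of numbers stand for is not known, so the called genes named, apart from Fign, are also given with the stretch as a block. The block split animals 7 to 128 into 7 to 79, with 2 high and 0 low livers, and 84 to 128, with 4 and 3. Animals 7 and 60 therefore have no low liver in their stretch and do not enter the blocked differences between the groups. Hepatocyte markers set the tissue clearly as liver, with albumin (Alb) between 13.20 and 13.54 in all 24 livers. Pancreatic acinar markers, 10 measured, averaged 10.20 in animal 96 and 7.94 in animal 149 of the high group and 6.83 in animal 170 of the low group, against group medians of 3.31 and 3.28. Mammary epithelium markers, 12 measured, averaged 8.17 in animal 161 of the low group against a group median of 3.75. Erbb2, the mouse gene of Neu, was 9.65 in animal 161 and at most 3.88 in the high group.

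Of the 22179 genes other than Fasn, 36 differed between the groups at an adjusted p under 0.05, which is 0.162% of those tested (limma with Benjamini-Hochberg adjustment). They were 28 genes higher in the high-Fasn livers (0.126%) and 8 lower (0.0361%). The higher genes included 8 of the lipogenesis list, with Pnpla3 the largest rise. The lower genes had Igfbp1 and Igfbp2 as the largest falls and included the glucose production genes G6pc and Pck1. At an unadjusted p under 0.05, 2406 genes (10.8%) differed. With the stretch of animal numbers as a block 7 genes (0.0316%) passed, all higher, of which 6 were among the 36, and 1819 (8.2%) had an unadjusted p under 0.05. A slope on Fasn over all 46 ranked livers, which include the 24, called 286 genes (1.29%), 233 higher (1.05%) and 53 lower (0.239%). With the stretch as a block that slope called 230 (1.04%), 193 higher (0.87%) and 37 lower (0.167%).

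Of 39 lists the lipogenesis list had the most called genes and the largest median difference. It holds 20 genes beside Fasn, of which 19 were measured and all 19 had higher means in the high-Fasn livers, against 50.2% of all genes. Of the 19, 8 rose and none fell, and the median difference was 0.80, against 0.0005 over all genes. The list was drawn up with the covariation of lipogenic genes in these livers already known, so its direction is not independent evidence. With the stretch as a block 4 of the 19 passed, with a median of 0.78, and the slope over 46 livers called 16, or 15 with the block. Among animals 7 to 128 the median was 0.63 and among animals 137 to 301 it was 0.91.

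Pnpla3, a lipase-like protein of lipid droplets, had the largest rise of any gene. It ran from 4.79 through a median of 7.49 to 8.43 in the high group and from 3.56 through 4.33 to 6.23 in the low group. In the high group 10 of 12 livers lay above every low-Fasn liver. The difference was 2.65 ± 0.40 (SE), or 6.30-fold (adjusted p = 0.00241, limma), and it was 2.68 with the stretch as a block (adjusted p = 0.0292). The exceptions were animals 96 and 60, at 4.79 and 4.95.

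Thrsp, a small nuclear protein tied to lipogenic gene activity, ran from 8.89 through 9.96 to 10.42 in the high and from 6.73 through 8.42 to 9.91 in the low group. Its difference was 1.35 ± 0.26 (adjusted p = 0.0325, limma). Its relative Mid1ip1, which promotes polymerisation of acetyl-CoA carboxylase, ran from 5.33 through 5.72 to 6.38 and from 4.47 through 5.02 to 5.24, so that the groups did not overlap. The difference was 0.79 ± 0.12 (adjusted p = 0.00241, limma). Mid1ip1 and Cyp2c55 were the 2 genes other than Fasn without any overlap, 0.00902% of those tested. Both Thrsp and Mid1ip1 kept their calls with the stretch as a block (adjusted p = 0.0388 and 0.0392, limma).

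Among the enzymes that feed Fasn, Acly, the ATP citrate lyase, ran from 8.64 through 9.70 to 10.40 in the high and from 8.26 through 8.81 to 9.24 in the low group, and 10 high-Fasn livers lay above all of the low group. Its difference was 0.85 ± 0.15 (adjusted p = 0.0201, limma). Acaca, the acetyl-CoA carboxylase of the cytosol, ran from 7.45 through 7.99 to 8.74 and from 7.13 through 7.42 to 7.89. It rose by 0.56 ± 0.12, just inside the threshold (adjusted p = 0.0499, limma). Acly and Acaca had 0.88 and 0.65 with the stretch as a block and no longer passed (both adjusted p = 0.105, limma). Aacs, which makes acetoacetyl-CoA from ketone bodies in the cytosol, ran from 6.56 through 7.71 to 8.15 and from 5.63 through 6.35 to 7.28. It rose by 1.21 ± 0.18, or 2.31-fold (adjusted p = 0.00241, limma), and by 1.32 with the stretch as a block (adjusted p = 0.0198).

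Of the enzymes that modify the product, Elovl6 ran from 7.00 through 9.32 to 10.03 in the high and from 7.24 through 8.09 to 8.46 in the low group. It rose by 1.12 ± 0.24 (adjusted p = 0.0499, limma); 10 high-Fasn livers lay above the low group and animal 96 lay below it. Scd1, the stearoyl-CoA desaturase, ran from 11.42 through 12.07 to 12.48 and from 9.45 through 11.16 to 12.001, a rise of 0.997 ± 0.20 (adjusted p = 0.0336, limma). Elovl6 and Scd1 had 1.24 and 1.13 with the stretch as a block and no longer passed (adjusted p = 0.165 and 0.138, limma). The low group was wide for Scd1, with animal 170 lowest and animal 284 highest. The polyunsaturated branch did not pass: differences were 0.31 ± 0.16 for Elovl5, 0.28 ± 0.10 for Fads1 and 0.30 ± 0.14 for Fads2 (adjusted p = 0.471, 0.277 and 0.465, limma).

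The other members of the list lay between. Me1, the malic enzyme that yields NADPH, had a difference of 1.18 ± 0.27 and Acacb, the carboxylase at mitochondria, of 0.81 ± 0.19 (both adjusted p = 0.0843, limma). Acss2, an acetyl-CoA synthetase, had 0.84 ± 0.23 and Gpam, the first step of glycerolipid synthesis, 0.61 ± 0.14 (adjusted p = 0.133 and 0.0760, limma). None of these passed between the groups, and each passed in the slope over 46 livers (adjusted p = 0.000915, 0.000706, 0.00265 and 0.000127, limma). Acsl5 and the citrate carrier Slc25a1 had 0.40 ± 0.13 and 0.25 ± 0.10. The smallest difference was that of Tmem97, a sterol-responsive membrane protein, at 0.02 ± 0.14.

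**Figure D2:**
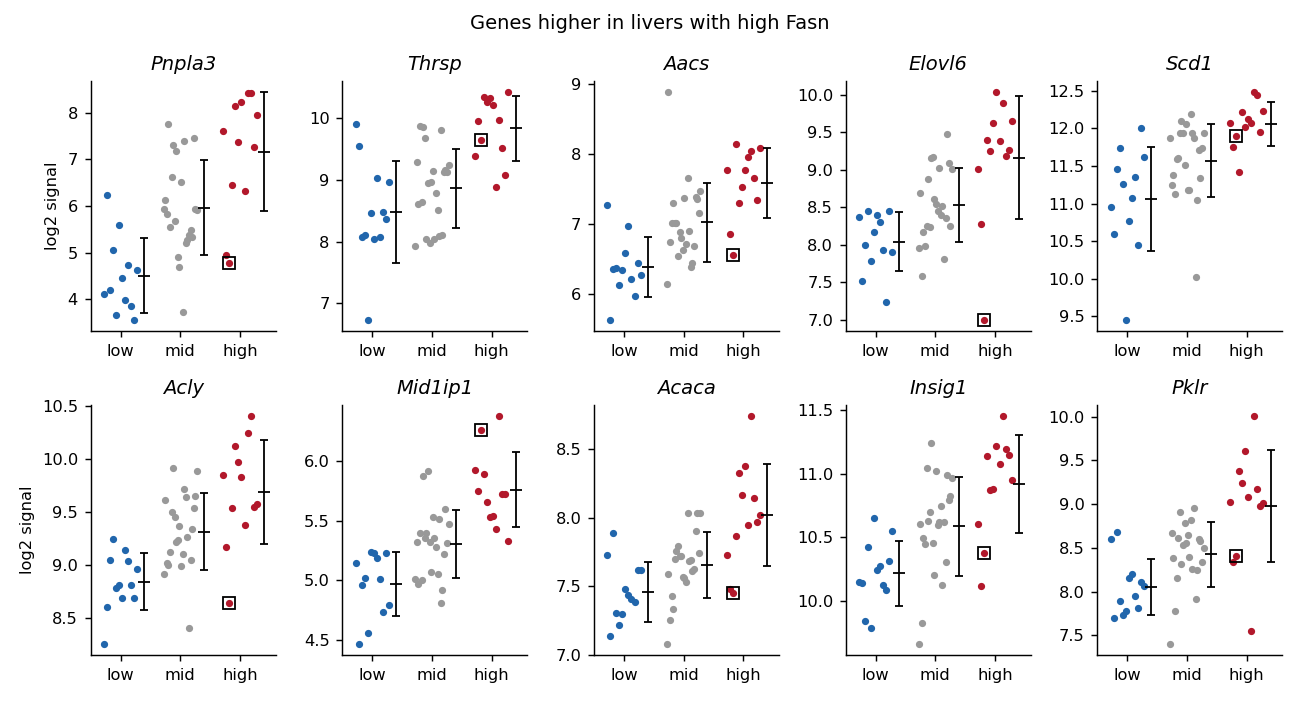
Log2 signal (vertical axis) of 10 genes in each of the 12 lowest (blue), 22 middle (grey) and 12 highest (red) Fasn livers, with the mean and SD as a bar beside the points. Animal 96, boxed, lies at 7.00 for Elovl6 and 4.79 for Pnpla3, among or below the low group, but at 6.26 for Mid1ip1, above it.

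Among regulators of the pathway 1 of 20 measured genes passed, against 0.126% of all genes higher. In 12 of the 20 the mean was higher, near the 50.2% of all genes. The list median was 0.10, and 0.01 with the stretch as a block. The regulator that passed was Insig1, the SREBP-induced protein that holds SREBP in the endoplasmic reticulum. Insig1 ran from 10.12 through 11.01 to 11.45 in the high and from 9.79 through 10.20 to 10.65 in the low group. It rose by 0.70 ± 0.13 (adjusted p = 0.0201, limma) and by 0.82 with the stretch as a block (adjusted p = 0.00396), where its adjusted p was the smallest of all genes. Srebf1, a member of the lipogenesis list too, had 7.09 through 7.91 to 8.70 against 6.46 through 7.04 to 8.01. Its difference was 0.80 ± 0.18 (adjusted p = 0.0714, limma), and its slope over 46 livers passed, at 0.56 per unit of log2 Fasn (adjusted p = 0.000224, limma). Mlxipl likewise had a difference of 0.61 ± 0.16 (adjusted p = 0.131) and a slope of 0.45 that passed (adjusted p = 0.00259, limma). Mlx, its dimer partner, had 0.37 ± 0.11. On the lower side were Insig2, at −0.45 ± 0.19, Foxo1, the insulin-restrained activator of glucose production, at −0.40 ± 0.12, and Lpin1, a fasting-induced phosphatidate phosphatase, at −0.73 ± 0.27, none of which passed (adjusted p = 0.376, 0.200 and 0.296, limma).

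Glycolysis had a marker among the called genes. Pklr, the liver pyruvate kinase and a classic ChREBP target, ran from 7.55 through 9.06 to 10.01 in the high and from 7.70 through 8.01 to 8.68 in the low group. It rose by 0.93 ± 0.19 (adjusted p = 0.0448, limma), although animal 179 of the high group had the lowest value of all 24. Its blocked difference was 0.997 and no longer passed (adjusted p = 0.176, limma). Of the 11 measured glycolysis and carbohydrate response genes, Pklr rose, G6pc fell and 9 did not pass, with a list median of −0.0048. Dlat, a subunit of pyruvate dehydrogenase, and Slc2a5, a fructose carrier, also rose, by 0.52 ± 0.11 and 0.63 ± 0.13 (adjusted p = 0.0499 and 0.0336, limma). These 2 genes were picked out after their values were seen, and neither passed with the stretch as a block (adjusted p = 0.1415 and 0.225, limma). The signal of Slc2a5 was low, with a median under 3.61, the median level of all genes. All 8 measured NADPH supply genes had higher means, against 50.2% of all genes, and none passed. After Me1, Pgd of the pentose phosphate route was farthest apart, at 0.50 ± 0.14 (adjusted p = 0.156, limma). Nnt, the mitochondrial transhydrogenase, had 0.096 ± 0.13.

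Genes of fasting and glucose production ran the other way. Of 14 measured, Igfbp1, G6pc and Pck1 fell, none rose and 13 had lower means, with a median of −0.42. Background for the 3 is 0.0361% of all genes lower, and 49.8% of all genes had lower means. This list too was chosen with earlier results of these data known, so its direction is not independent evidence. With the stretch as a block none of the 14 passed, with a median of −0.45, and 4 passed, all lower, in the slope over 46 livers with the same block.

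Igfbp1, an insulin-repressed binding protein for insulin-like growth factors, fell most. It ran from 5.93 through 9.45 to 10.86 in the high and from 10.03 through 11.18 to 11.60 in the low group. In the high group 9 of 12 livers lay below every low-Fasn liver, so the spread of the high group was the wider. The difference was −2.03 ± 0.42 (adjusted p = 0.0457, limma) and was −1.64 with the stretch as a block (adjusted p = 0.258). Animal 60, the lowest liver at 5.93, does not enter that blocked difference. Igfbp2, a further member of the family, ran from 7.34 through 8.01 to 8.82 and from 8.09 through 9.41 to 9.88. It fell by 1.15 on the log2 scale, with an SE of 0.19 (adjusted p = 0.00894, limma), and 10 of 12 low-Fasn livers lay above all of the high group. Igfbp2 had −1.10 with the stretch as a block and no longer passed (adjusted p = 0.1415, limma).

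G6pc, the glucose-6-phosphatase that releases free glucose, ran from 9.99 through 10.42 to 11.28 in the high and from 10.19 through 11.37 to 11.83 in the low group. The difference was −0.81 ± 0.16 (adjusted p = 0.0351, limma). Pck1, which commits oxaloacetate to glucose synthesis, ran from 10.92 through 11.43 to 11.80 and from 11.30 through 12.07 to 12.27. Its difference was −0.58 ± 0.11 (adjusted p = 0.0332, limma). For both, 8 of 12 low-Fasn livers lay above the whole high group. Trib3, a pseudokinase that binds Akt, had a difference of −0.47 ± 0.10 (adjusted p = 0.0499, limma) at a level near the floor of the array, with medians of 3.33 and 3.86. With the stretch as a block Pck1 had −0.51 and Trib3 −0.51, and neither passed (adjusted p = 0.257 and 0.120, limma). G6pc passed neither with the stretch as a block nor in the slope over 46 livers (adjusted p = 0.273 and 0.0579, limma).

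The remaining lower genes were Nlrp12, a sensor of the NOD-like family, at −0.97 ± 0.19 (adjusted p = 0.0336, limma), and 2 transcripts known by clone names. Of these 4833411C07Rik, named after its values were seen, had −0.90 ± 0.15 (adjusted p = 0.00894, limma). Neither Nlrp12 nor 4833411C07Rik passed with the stretch as a block, at −0.77 and −0.89 (adjusted p = 0.177 and 0.105, limma).

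**Figure D3:**
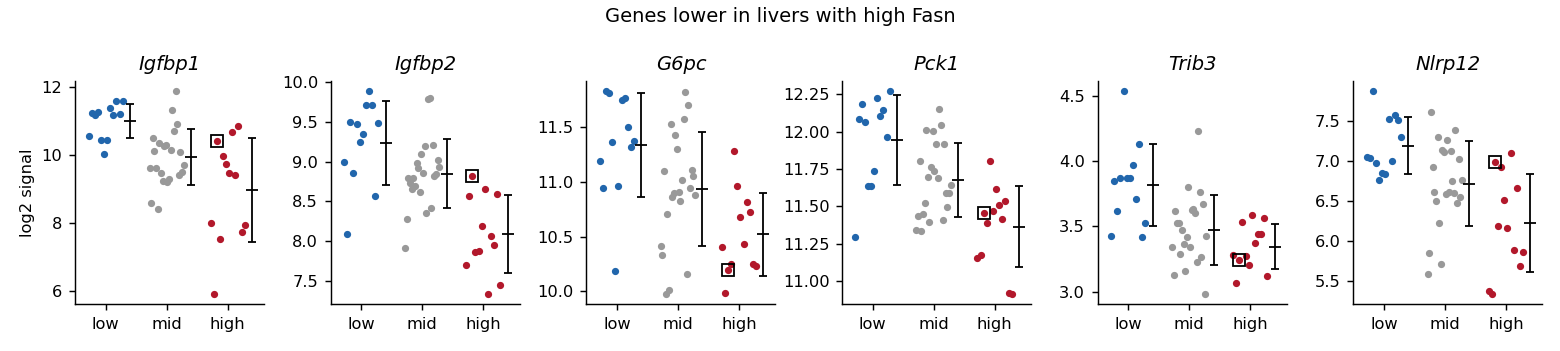
Log2 signal (vertical axis) of 6 genes that were lower in the high-Fasn livers, in the 12 lowest (blue), 22 middle (grey) and 12 highest (red) livers, with mean and SD beside the points and animal 96 boxed. Igfbp1 spreads from 5.93 to 10.86 in the high group and stays between 10.03 and 11.60 in the low group.

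Several genes outside the lipid lists rose as well. Cyp2c55, a P450 enzyme induced through nuclear receptors, ran from 6.24 through 6.74 to 7.39 in the high and from 5.56 through 6.01 to 6.17 in the low group. The groups did not overlap, and the rise was 0.79 ± 0.12 (adjusted p = 0.00241, limma). It was 0.85 with the stretch as a block (adjusted p = 0.0198, limma). Cyp2c55 was the 1 member of 13 measured xenobiotic metabolism genes that passed, against 0.126% of all genes higher. Nudt7, a peroxisomal hydrolase of coenzyme A, ran from 5.70 through 7.75 to 7.91 and from 5.71 through 6.31 to 7.21 and rose by 1.03 ± 0.21 (adjusted p = 0.0336, limma). Ccn1, a matricellular protein, rose by 1.205 ± 0.25 (adjusted p = 0.0473, limma), but only 1 high-Fasn liver, animal 96, lay above all of the low group. B4galt5, which starts lactosylceramide synthesis, and the tubulin gene Tuba1c rose by 0.84 ± 0.18 and 0.72 ± 0.14 (adjusted p = 0.0499 and 0.0295, limma). Bag3, a co-chaperone, rose by 0.73 ± 0.15 (adjusted p = 0.0380, limma). All 11 measured heat shock genes had higher means, against 50.2% of all genes, and the other 10 did not pass. Adipor2, an adiponectin receptor named after its values were seen, rose by 0.55 ± 0.12 (adjusted p = 0.0499, limma). With the stretch as a block Nudt7, Ccn1, B4galt5, Tuba1c, Bag3 and Adipor2 kept their direction, with differences from 0.52 to 0.99, and did not pass (adjusted p from 0.177 to 0.385, limma).

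Neighbouring lipid pathways did not pass between these groups. Of 17 measured cholesterol synthesis genes none passed and 15 had higher means, against 50.2% of all genes, with a median of 0.17. Mvd, the mevalonate decarboxylase, had the largest difference, 0.68 ± 0.16 (adjusted p = 0.0871, limma), followed by Lss at 0.39 ± 0.20. In the 24 measured genes of triglyceride synthesis and lipid droplets, 14 had higher means and none passed; Lpin1 was farthest apart and the lipolysis inhibitor G0s2 had 0.67 ± 0.27. Of 24 measured fatty acid oxidation and ketogenesis genes 12 were higher and 12 lower, with a median of 0.01. Angptl4, a fasting-induced inhibitor of lipoprotein lipase, had −0.87 ± 0.29 and the peroxisomal thiolase Acaa1b 0.69 ± 0.28 (adjusted p = 0.260 and 0.373, limma). Of 12 measured uptake and binding genes none passed. Lpl, the lipoprotein lipase, was far lower in mean without passing: it ran from 4.53 through 5.35 to 8.01 in the high and from 5.40 through 7.13 to 9.20 in the low group, a difference of −1.63 ± 0.41 (adjusted p = 0.119, limma). Fabp4, carried by endothelium, macrophages and fat cells, had −1.05 ± 0.44 (adjusted p = 0.382, limma). Cyp4a14, a fatty acid hydroxylase induced by PPAR alpha, ran from 3.13 through 5.82 to 9.13 and from 3.23 through 4.44 to 11.36; the difference was 0.065 ± 0.93. None of the 16 apolipoprotein and VLDL export genes or of the 13 bile acid genes passed. The slope over 46 livers called 2 cholesterol synthesis genes and 1 triglyceride and lipid droplet gene higher, against 1.05% of all genes. It called 1 fatty acid oxidation gene and 1 uptake and binding gene lower, against 0.239% of all genes. With the stretch as a block these 4 counts were 3, 2, 1 and 0.

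Genes against oxidative stress, which the series names in its title, did not pass between the groups. Of 15 measured primary antioxidant enzymes 8 had higher means, with a median of 0.03, and the 2 farthest apart were Glrx at −0.23 ± 0.10 and Sod2 at 0.21 ± 0.11 (adjusted p = 0.384 and 0.518, limma). Of 15 NRF2 targets 10 had higher means, with Me1, shared with the lipogenesis list, farthest apart. The slope over 46 livers called 2 of these 15 higher, Me1 among them, against 1.05% of all genes. With the stretch as a block it called 2, against 0.87%. Neither slope called a primary antioxidant enzyme. None of 10 p53 and senescence genes passed. Cdkn1a, the cell cycle inhibitor p21, ran from 5.09 through 6.75 to 8.44 in the high and from 7.15 through 7.81 to 9.35 in the low group; the difference was −1.17 ± 0.31 (adjusted p = 0.131, limma). Btg2 had −1.03 ± 0.39 (adjusted p = 0.327, limma).

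**Figure D4:**
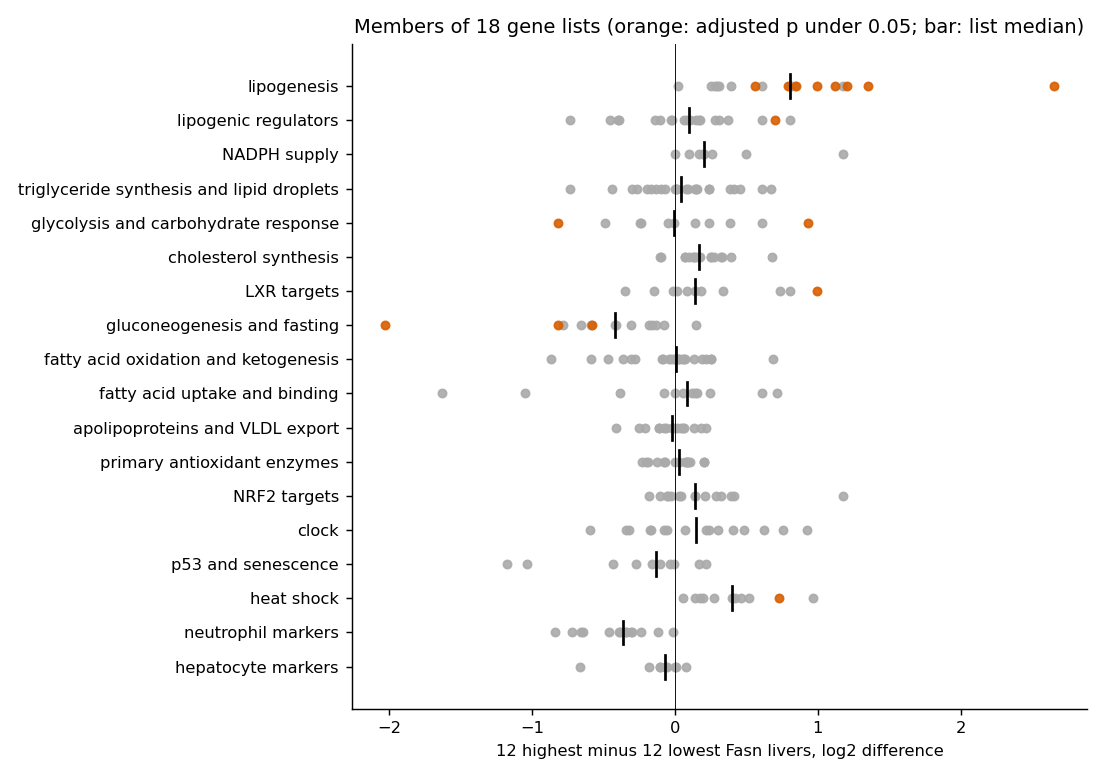
Log2 difference, 12 highest minus 12 lowest Fasn livers (horizontal axis), for each measured member of 18 gene lists (rows), with members at adjusted p under 0.05 in orange and the list median as a bar. All 19 lipogenesis genes lie to the right of 0 and 13 of 14 gluconeogenesis and fasting genes to the left.

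Markers of other cells and of the time of day were set beside these results, and their part in them was not tested. In bulk tissue, fewer cells of a type and less RNA per cell cannot be told apart. All 14 neutrophil markers and all 13 endothelial markers had lower means in the high-Fasn livers, against 49.8% of all genes. Their medians were −0.36 and −0.14, and none passed. The endothelial median turned between parts of the series, at 0.30 among animals 7 to 128 and −0.27 among animals 137 to 301, while the neutrophil medians were −0.13 and −0.42. The mean level over the neutrophil list ran from 3.54 to 4.81 in the high and from 3.50 to 5.48 in the low group. The level of 5.48 was that of animal 161, the liver with mammary markers, and Ltf is on both lists. Without animals 96 and 161 the neutrophil median was −0.29. The mean level over the endothelial list ran from 7.07 to 7.75 in the high and from 6.56 to 8.08 in the low group. Of the neutrophil genes Lcn2, which hepatocytes also make in the acute phase, had −0.84 ± 0.48 and S100a8 −0.72 ± 0.37. Of 9 hepatocyte markers 7 had lower means, with a median of −0.07 and list levels from 11.33 to 11.66 and from 11.39 to 11.69. Of 14 Kupffer cell and macrophage markers 9 had lower means, with a median of −0.09 that also turned, from 0.30 among animals 7 to 128 to −0.16 among animals 137 to 301. Of 16 measured clock genes 9 had higher means and none passed. An unadjusted p under 0.05 (limma) was reached by 6 of the 16, against 10.8% of all genes. Nr1d1, a repressor of the clock, had 0.92 ± 0.40 and Per3 0.76 ± 0.23 (adjusted p = 0.402 and 0.207, limma). These clock differences were 2.20 and 1.32 among animals 7 to 128 and 0.19 and 0.30 among animals 137 to 301.

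The 22 livers that neither group used gave the 36 genes a second reading, over a Fasn range of 0.80 log2 against 2.36 in all 46. Fitted alone on Fasn, no gene of 22179 passed the adjusted threshold there (0%; lowest adjusted p = 0.999, limma), and 908 (4.09%) had an unadjusted p under 0.05. Of the 36 genes called between the groups, 35 kept their sign in these livers, where 58.95% of all genes did. An unadjusted p under 0.05 with the same sign was reached by 12 of the 36 (33.3%), against 2.94% of all genes. All 8 lower genes and 27 of 28 higher genes kept their sign. The exception was Lcmt1, with a slope of −0.0047. Between the groups Lcmt1 had a difference of 0.33. With the stretch as a block it had 0.24 and no longer passed (adjusted p = 0.366, limma).

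Among the 12 were 5 of the 8 called lipogenesis genes. Per unit of log2 Fasn, the slope in the 22 livers was 2.14 ± 0.60 for Pnpla3, 1.39 ± 0.31 for Aacs and 1.17 ± 0.28 for Elovl6 (unadjusted p = 0.00138, 0.000165 and 0.000303, limma). Acly had 0.61 ± 0.24 and Mid1ip1 0.52 ± 0.20 (unadjusted p = 0.0175 and 0.0142, limma). Beyond the list, Cyp2c55 had 0.61 ± 0.15, Nudt7 1.18 ± 0.35 and Bag3 0.80 ± 0.26 (unadjusted p = 0.000501, 0.00250 and 0.00420, limma). Insig1 had 0.62 ± 0.26 and Pklr 0.64 ± 0.25 (unadjusted p = 0.0267 and 0.0166, limma). On the lower side were Igfbp1 at −1.29 ± 0.55 and Trib3 at −0.53 ± 0.18 (unadjusted p = 0.0257 and 0.00684, limma). G6pc was near 0, at −0.0057 ± 0.38, as were B4galt5 at 0.0022 ± 0.37 and Ccn1 at 0.18 ± 0.44. All 19 lipogenesis genes had positive slopes, with a median of 0.52, and so had all 17 cholesterol synthesis genes, with a median of 0.47 against 0.0049 over all genes. Of all 22179 genes, 11398 had positive slopes. The sign was not particular to these 2 lists. Slopes were also positive for all 11 heat shock, 22 of 24 fatty acid oxidation and 12 of 13 bile acid genes. An unadjusted p under 0.05 (limma) was reached by 8 of the 19 lipogenesis and 9 of the 17 cholesterol synthesis genes, against 4.09% of all genes. The largest such count was 10 of 17 measured endoplasmic reticulum stress genes. Of those 17 genes 14 had positive slopes, and between the groups only Trib3 passed, on the lower side.

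**Figure D5:**
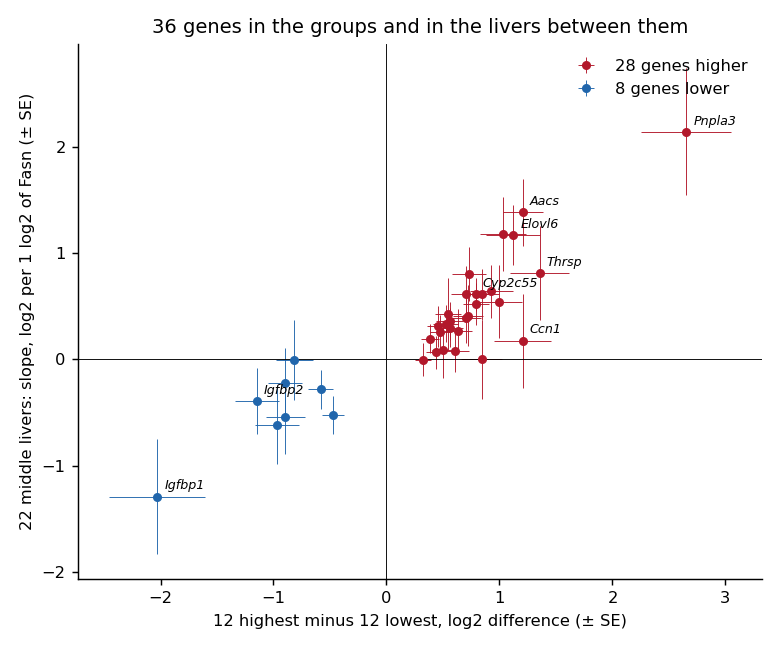
For the 36 called genes, the log2 difference between the 12 highest and 12 lowest livers (horizontal axis) against the slope on Fasn in the 22 livers between them (vertical axis, log2 per 1 log2 of Fasn), both with SE bars. Red points are the 28 higher and blue points the 8 lower genes; 35 of 36 lie in the quadrants of equal sign, with Pnpla3 at 2.65 and 2.14 and Igfbp1 at −2.03 and −1.29.

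The livers of a group were not uniform. When each gene was split at the midpoint between its group means, the high-Fasn livers had between 12 and 27 of the 28 higher genes above it, with a median of 25.5, and the low-Fasn livers between 0 and 9, with a median of 3. These counts rest on the genes that separated the groups and serve only to order the livers. The 22 other livers had from 3 to 20. Animal 96 was lowest of the high group with 12, and animal 60 next with 18. Animal 96 had a Fasn value of 10.41, yet 4 of 19 lipogenesis genes above the midpoint. Its Elovl6 value of 7.00 and its Nudt7 value of 5.70 lay below every low-Fasn liver. Among the 24 it was also the liver with the highest pancreatic marker level, with the protease gene Ctrb1 at 12.30. Without animal 96, 126 genes passed in place of 36, the 36 all among them, and 12 in place of 8 lipogenesis genes did. Without both animal 96 and animal 161, the liver with mammary markers, 117 passed, again with all 36 among them.

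Animal 60 combined a Fasn value of 10.39 with the lowest Igfbp1 of all 24 livers, 5.93, and the lowest G6pc of the high group, 9.99. Its Pnpla3 was 4.95. All 8 lower genes lay below the midpoint in it, but 7 of 19 lipogenesis genes lay above. The lipogenic and the fasting genes were thus not at matched positions in every liver.

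The 4 livers left out of the ranking had another combination. At most 1 of 19 lipogenesis genes lay above the midpoint in any of them, and Pnpla3 was between 3.56 and 3.95. Yet between 4 and 8 of the 8 lower genes lay below the midpoint too, the side of the high-Fasn livers. Hepatocyte markers averaged 10.00 in animal 64 and 10.55 in animal 235, against medians of 11.49 in the high and 11.63 in the low group. Animals 84 and 87 had 11.40 and 11.41. Cell cycle genes averaged 8.19 in animal 64 and 6.31 in animal 235, against group medians of 4.26 and 4.22. In animals 84 and 87 they averaged 3.95 and 4.38. Whether cell content had a part in the lower genes here was not tested. G6pc was 8.13, 9.71, 9.57 and 8.47 in animals 64, 84, 87 and 235, below all 46 ranked livers. Ranked with them, the low group took in all 4 and kept 8 of its 12 livers; 98 genes then passed, 91 higher and 7 lower, and no gluconeogenesis and fasting gene was among them.

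Ranking by another lipogenic gene drew partly different livers. By Elovl6, 9 of the 12 high and 7 of the 12 low livers were shared with the Fasn groups, and 348 genes passed. By Acly, 6 and 8 were shared, 1 liver of the low group came from the high-Fasn group, and 19 genes passed, all higher. Under the Acly ranking Pnpla3, Aacs, Elovl6, Pklr and Acaca kept their calls, with differences of 2.28, 1.17, 1.17, 0.94 and 0.59. Igfbp1 and Pck1 had −0.92 and −0.10 there and did not pass, and G6pc turned to 0.061.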

How the data were processed

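Per the labels' protocols, 100 ng of RNA was amplified and labelled with a whole-transcript kit. The extraction protocol speaks of purified cell populations while the labels give liver tissue, and the values were read as liver. The authors deposited log2 signals per probe set; the submitters' processing notes name RMA and version 1.4.1 of the Affymetrix Expression Console. RMA normalises arrays by quantiles, so overall differences in RNA amount are removed. Of 41345 probe sets, 23521 carried 1 gene symbol in the platform annotation; the one with the highest median per gene left 22180 genes. Of 584 genes in 39 lists, 509 were measured.

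Livers were ranked by the single Fasn probe set. Groups were compared with limma 3.58.1 in R 4.3.3 (lmFit, eBayes with trend), without covariates, with Benjamini-Hochberg adjustment over 22179 genes. The number of arrays limits the precision.

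The members and lists were chosen with earlier results of these data known. The rule for named genes covered the lipogenesis and regulator lists, the 15 largest rises and falls, the leading members of other lists, and Nnt, Cyp4a14 and Erbb2. Promoter sequences were not used here. Alternatives covered group size, ranking gene, animal number, scaling, probe sets, level filter and test. The stretches of animal numbers were found after the data were seen.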

Additional observations from a re-analysis of the deposited data

How the results depend on the processing

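The 36 genes kept their direction under each alternative in which they were tested, except G6pc when livers were ranked by Acly (0.061). Trib3, Slc2a5 and Fign were not tested among genes at or above the median level, nor Acly and Elovl6 in the rankings by themselves. The count of 36 depended strongly on the choices. It was 147 with 8 livers per group, 61 with 16, 75 with 23, 98 with all 50 livers ranked, 348 and 19 when ranked by Elovl6 and Acly, 7 with the stretch of animal numbers as a block, 88 among genes at or above the median level, 2 by rank-sum test and 286 as a slope over 46 livers. Alternatives chosen after the data were seen gave 230 for that slope with the block, 117 without animals 96 and 161, 1 within animals 7 to 128 and 22 within animals 137 to 301. Array centring (38), the mean of probe sets (25) and a fit without trend (37) stayed within 1.5 times. Leaving out each of the 24 livers in turn gave 9 to 126 genes: 126 without animal 96, 9 without 114, 258, 282 or 301, 10 without 101 or 270, 11 without 187, 12 without 7 or 289, 14 without 149 or 232, 17 without 253, 20 without 117 and 21 without 284. Over these refits 4 to 12 lipogenesis and 0 to 4 gluconeogenesis and fasting genes passed. Pnpla3, Aacs, Acly, Mid1ip1, Insig1, Cyp2c55, Igfbp2 and 4833411C07Rik passed in all 24, and Elovl6 in 3. In the 22 middle livers no gene passed under any setting tried. Of named genes that had not passed, Tmem97 turned to −0.275 within animals 7 to 128, −0.013 ranked by Acly and −0.045 without animals 96 and 161, and Mlx and Sod2 to −0.0062 and −0.060 within animals 7 to 128. Nnt and Erbb2 turned there to −0.0074 and 0.0586. Cyp4a14 had no stable direction: it was −0.153 with 16 livers per group, −0.289 with all 50 ranked, −0.507 with the block, −2.03 within animals 7 to 128, −1.49 and −0.560 ranked by Acly and Elovl6, and −0.143 as a slope with the block. The causes were not tested. Several calls lie just under the threshold, and low signal limits Trib3, Slc2a5 and Fign.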
